A study of Bos taurus with 21 samples.

Results

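The 4 casein genes CSN1S1, CSN1S2, CSN2 and CSN3 were described in milk somatic cells, the cells that can be collected from milk. They were taken by their gene symbols from the 13570 gene rows of the count tables, and all 4 were counted in each of the 21 cows. RNA-seq was performed on 1 milk sample from each of 21 Holstein cows, 9 in the high yielding group (HY) and 12 in the low yielding group (LY). The study assigned the groups by a production index, and the milk yield values of the labels do not overlap between them. The lowest HY value was 181.118 and the highest LY value 86.92. No cow was treated. The lactation period, taken from the labels in days, was 41 to 268 for the HY cows and 52 to 270 for the LY cows. Parity was 2 in 14 cows, 3 in 4 cows and 4 in 3 cows. Each library holds whatever cells the milk of that cow contained, and fewer cells of a type and less RNA per cell cannot be told apart in such samples. Cows are named by group and number, and the numbers carry no further meaning.

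Caseins are the main proteins of cow milk and are made by the secretory epithelial cells of the mammary gland. CSN1S1 and CSN1S2 encode the alpha-s1 and alpha-s2 caseins and CSN2 encodes beta-casein, phosphoproteins that bind calcium. CSN3 encodes kappa-casein, a glycosylated protein that sits on the surface of the casein micelle and keeps it in solution. Prolactin, acting through its receptor PRLR, JAK2 and STAT5, and glucocorticoids are the known inducers of their transcription. The 4 genes lie near each other. In the RefSeq annotation of the ARS-UCD2.0 assembly, which is not the build of the count tables, all 4 symbols were matched, and the order along the chromosome was CSN1S1, CSN2, HSTN, STATH, CSN1S2, ODAM and CSN3, with some further genes between.

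Each cow had 7878557 to 28541904 gene counts (median 11826889), so that shares of counts had narrow counting intervals, which do not cover the differences between cows. Genes were tested in all 12333 rows with a count in at least 1 cow. Levels are given as CPM, counts scaled to library size with the trimmed mean of M-values (TMM) factors, or as log2(CPM + 0.25). They are not divided by transcript length, so counts of different caseins do not give their relative numbers of transcripts. Where the caseins are set side by side, the order and the shares are those of counts. Their ratios were compared between cows. In HY8 the TMM factor was 0.460, the lowest of the cows, so its CPM values exceed its plain share of counts. The markers of neutrophils, macrophages and T cells were counted beside those of mammary epithelium, as described further below.

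The caseins together took between 0.0876% and 44.2% of the gene counts of a cow, with a median of 9.27%. In HY the lowest share was 0.0876%, the median 4.34% and the highest 44.2%. In LY the lowest was 0.164%, the median 11.04% and the highest 26.8%. The LY range lay wholly inside the HY range. HY cows lay beyond it at both ends, HY7 and HY1 (0.141%) below every LY cow and HY9 (33.6%) and HY8 above. A share below 1% was found in 4 cows, of which 3 were HY (HY7, HY1 and HY4) and 1 was LY (LY12). A share above 20% was found in 7 cows, 3 HY and 4 LY. The share of HY7 had a 95% Wilson interval from 0.0856% to 0.0897%, and that of HY8 from 44.1% to 44.2%. These intervals cover counting error only, since reads are not independent molecules.

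**Figure D1:**
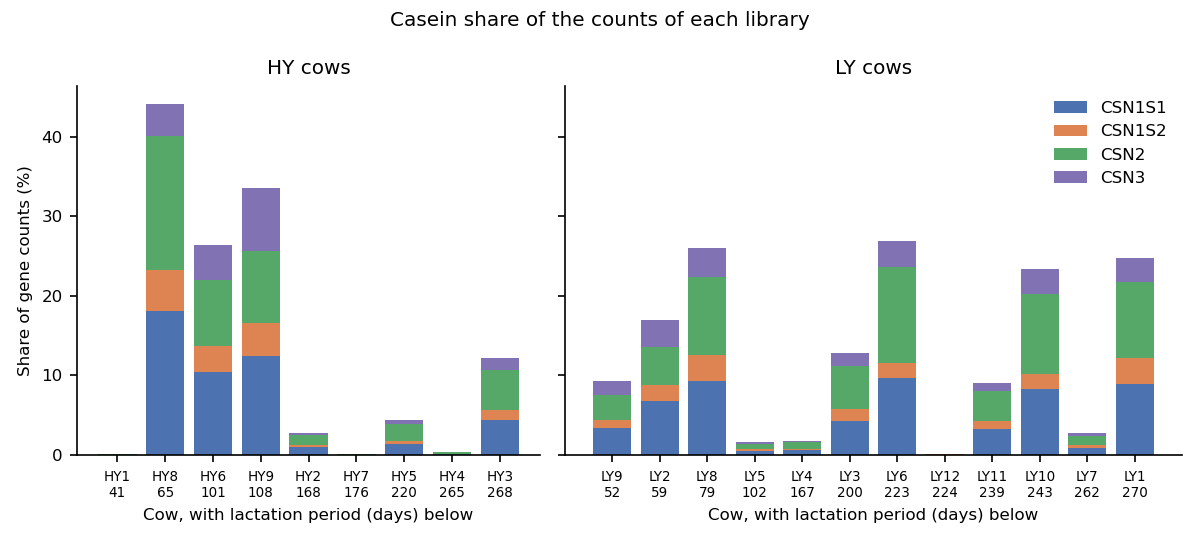
Share of the gene counts of each library (vertical axis, percent) taken by the 4 caseins, stacked by gene, in the 9 HY cows (left) and the 12 LY cows (right), ordered by lactation period in days. The stacks reach from 0.0876% in HY7 to 44.2% in HY8, and both groups hold cows under 1% and over 20%.

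CSN1S1 took 0.0298% of the counts in HY7, 3.44% in the median cow and 18.0% in HY8. Its level was 294 CPM in HY7 and 392154 CPM in HY8, a 1333-fold range. CSN2 took between 0.0306% and 16.8%, with a median of 3.71%. CSN1S2 took between 0.0118% (HY1) and 5.20% (HY8), with a median of 1.03%. CSN3 took between 0.0112% (HY7) and 8.01% (HY9), with a median of 1.56%. The 4 cows with the lowest level were HY7, HY1, LY12 and HY4 for each of the 4 genes, and the 3 with the highest level included HY8 and HY9 each time.

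All 4 caseins were among the 10 most highly counted genes in 13 cows, and none of them was in 4 cows. In HY7 they ranked 588 (CSN2), 598 (CSN1S1), 1105 (CSN1S2) and 1533 (CSN3) among all genes. In HY8 they ranked 1 (CSN1S1), 2 (CSN2), 4 (CSN1S2) and 6 (CSN3). Even in the lowest cow CSN3 still had 879 counts, so that the low levels were measured well above 0.

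Few genes varied more between cows. The SD of log2(CPM + 0.25) over the 21 cows was 3.12 for CSN1S1, 3.09 for CSN1S2, 2.95 for CSN2 and 3.13 for CSN3. The median SD of the 9297 genes ranked was 0.70, and the caseins held ranks 12, 13, 16 and 11 from the top. Among the genes with a larger SD than CSN3 were the whey protein genes LALBA (3.38) and GLYCAM1 (3.39), the milk fat globule genes BTN1A1 (3.22) and MUC15 (3.23), and HSTN (3.202), a neighbour of CSN2.

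The 4 genes went up and down together. Pearson r between their log2 levels over the 21 cows ranged from 0.983 (CSN2 with CSN3) to 0.996 (CSN1S1 with CSN1S2), and Spearman rho from 0.965 to 0.991. Each of the 6 pairs had a permutation p of 1e-05 for both, the smallest that 100000 permutations can give, which adjustment over the 6 pairs leaves at 1e-05. Without the 2 cows farthest from the median level, r was at least 0.975. Within HY it was 0.986 to 0.997, and within LY 0.978 to 0.995. Within the 16 cows of the lower mapping set, the cows with the lower of 2 clusters of mapping rates, it was 0.984 to 0.995.

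Library measures were set beside this range. Over the 21 cows, r between the log2 sum of the caseins and log2 total gene counts was -0.0383 (permutation p = 0.868, adjusted over 3 relations 0.868; rho = -0.0805, permutation p = 0.729, adjusted 0.729). The corresponding r with the TMM factor was -0.533 (permutation p = 0.0130, adjusted 0.0389; rho = -0.588, permutation p = 0.00607, adjusted 0.0182), and it was -0.351 without HY8 and HY9. Since the level is divided by that factor, the pair is not independent. With the share of reads outside annotated genes, r was -0.221 (permutation p = 0.337, adjusted 0.506; rho = -0.229, permutation p = 0.318, adjusted 0.477), and it was 0.00218 without HY8 and LY7. Within the 16 cows of the lower mapping set, the r values were 0.152, -0.611 and -0.253. The part of these measures in the casein level was not tested further.

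The genes whose level over the 21 cows was most like that of the caseins were ranked among 9293 genes outside the family, by the mean of the 4 Pearson r values. The median over all these genes was -0.108, 13.9% were above 0.5 and 16.2% were below -0.5, which is the background for the counts of list members below. The points share library and scaling, so these values are a description without a test. First came BTN1A1, the butyrophilin of the milk fat globule membrane, with a mean r of 0.991 (0.988 to 0.994 over the caseins). MUC15, a membrane mucin of the fat globule, had 0.987 and RASEF had 0.982. GLYCAM1 had 0.980 and LALBA, the alpha-lactalbumin of lactose synthesis, had 0.979. SH3BGRL2, ELF5, MYBPC1 and SDC2 had 0.978 each, and ELF5 is a transcription factor of the secretory mammary lineage.

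The level of BTN1A1 went from 22 counts in its lowest cow to 39837 in its highest, and that of ELF5 from 12 to 8990. At the other end were PI4KA, a phosphatidylinositol kinase, with a mean r of -0.912, NOS2, the inducible nitric oxide synthase, with -0.891, TRAF3IP2 with -0.890, DCTN1 with -0.882 and DIS3L2 with -0.878. The direction of each of these genes was kept with total counts in place of TMM and with scaling computed without the caseins, both chosen after the values were seen. The weakest value under total counts was that of DCTN1, -0.727.

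**Figure D2:**
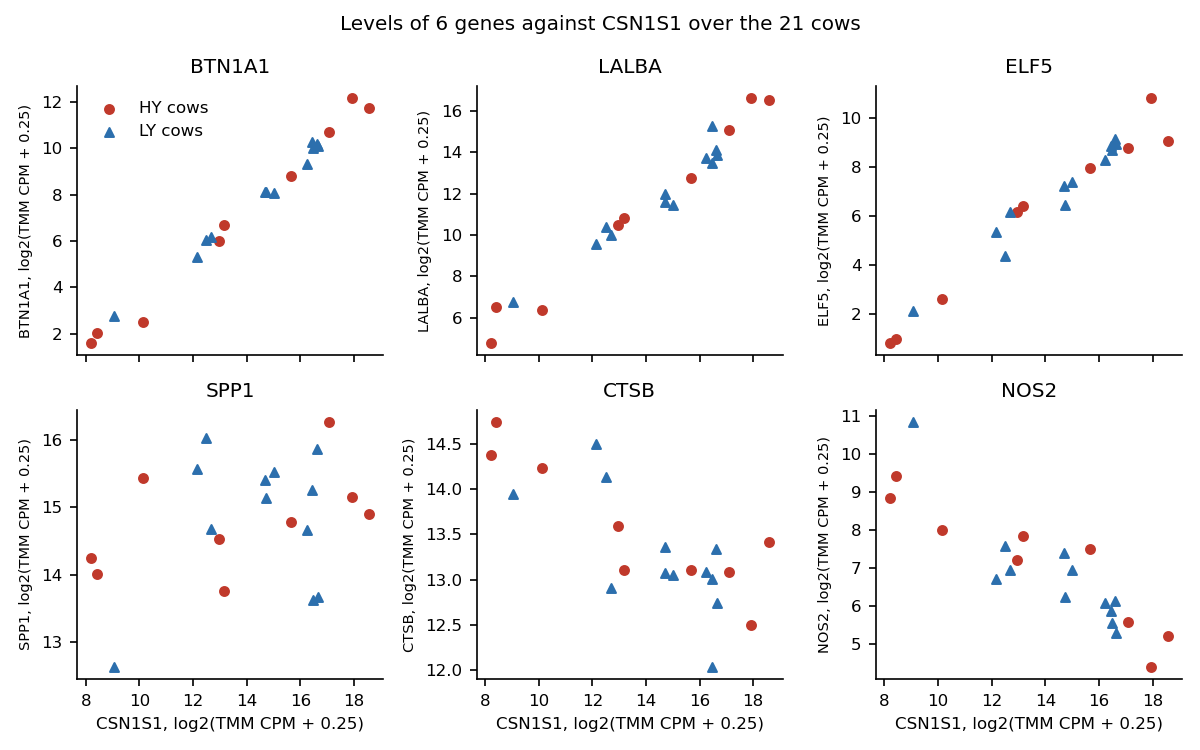
Levels of BTN1A1, LALBA, ELF5, SPP1, CTSB and NOS2 (vertical axes) against CSN1S1 (horizontal axes), all as log2(CPM + 0.25), with 1 point for each of the 9 HY cows (circles) and 12 LY cows (triangles). BTN1A1, LALBA and ELF5 rise along a line with CSN1S1, SPP1 is scattered, and CTSB and NOS2 are lower where CSN1S1 is higher.

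The other major milk protein genes were compared next. Of the 6 whey protein genes counted, 4 had a mean r above 0.5 with the caseins: GLYCAM1, LALBA, PAEP (beta-lactoglobulin, 0.971) and LTF (lactoferrin, 0.817). SPP1, osteopontin, had 0.334 and CST3, cystatin C, had -0.139. LALBA ranged from 27.1 to 100373 CPM with a median of 3054, and PAEP from 227 to 225693 CPM with a median of 9484. SPP1 kept a high level in each cow, from 6334 to 78969 CPM. Thus the cow-to-cow range of SPP1 was far narrower than that of LALBA and PAEP. LTF is also a neutrophil gene.

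Of the genes that lie near the caseins, 6 of 15 listed were counted. HSTN ranged from 6.005 to 9481 CPM with a mean r of 0.970. STATH, at no more than 5.19 CPM, had 0.845, and ODAM, at no more than 10.5 CPM, had 0.797. SULT1E1, UGT2A3 and AMBN had at most 10 counts in every cow, too few to read a pattern.

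Of the prolactin and growth hormone signalling genes, 9 of 14 listed were counted. PRLR itself was near the limit of counting, from 0 to 4.38 CPM, with a mean r of 0.712 with the caseins. GHR, the growth hormone receptor, had 0.706 at 0 to 8.25 CPM. The glucocorticoid receptor NR3C1 was counted at 54.7 to 259 CPM with r of 0.529, and SOCS2, a target and inhibitor of the pathway, had 0.554. STAT5A, at 31.9 to 164 CPM, had -0.510, STAT5B had -0.461, SOCS3 had -0.582 and IGF1R had -0.716. The members thus split, with 4 above 0.5 and 3 below -0.5.

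Among 16 counted transcription regulators of the mammary gland, 7 had a mean r above 0.5. ELF5, EHF (0.941) and NFIB (0.938), all factors of mammary epithelium, led them. SREBF1, a regulator of lipid synthesis, was the 1 regulator below -0.5, with -0.720. None of the 9 counted genes for phosphorylation or O-glycosylation of secreted proteins was above 0.5, and GALNT2 (-0.664) and ST3GAL4 (-0.623) were below -0.5, a share near that of all genes. The milk fat globule list had 8 of 10 above 0.5, the exceptions being PLIN2 (0.301) and CD36 (0.338). Of 9 counted protease and inhibitor genes, the cathepsins CTSB (-0.788), CTSD (-0.788) and CTSH (-0.730) were below -0.5 and none was above 0.5.

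Of the marker lists, the epithelial one was higher and the macrophage one lower where the casein level was higher. Of 17 counted epithelial markers, 13 had a mean r above 0.5, and r of their log2 summed level with the caseins was 0.906. The sum ranged from 41.9 to 5244 CPM in HY (median 194) and from 185 to 2390 CPM in LY (median 487). Of the epithelial markers, KRT19 went from 6.61 to 2047 CPM and EPCAM from 0.735 to 149 CPM, while KRT14, KRT5, CDH1 and AQP5 had r below 0.5. ELF5 and MUC1 are in this list as well as in another.

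Of 10 macrophage markers, 7 were below -0.5, against 16.2% of all genes, and none was above 0.5, and r of their sum was -0.769. CD14 had -0.813 and CSF1R had -0.771, while MSR1 (0.278) and GPNMB (0.221) were positive. The macrophage sum was 2721 to 9850 CPM in HY (median 5962) and 3209 to 8760 CPM in LY (median 5249). For neutrophils r of the sum was -0.0998 (2358 to 13850 CPM in HY, 3907 to 13242 CPM in LY), for T cells -0.156 (94.7 to 954 CPM in HY, 94.9 to 1624 CPM in LY) and for B cells -0.436 (8.25 to 316 CPM in HY, 29.0 to 108 CPM in LY). CAMP in the neutrophil list had at most 10 counts in every cow. The part of the cell mixture in the comparisons of the caseins was not tested. The signs of the sums were kept under both other scalings, but with total counts the neutrophil sum had r of -0.397.

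The first comparison asked whether cows of the high and the low yielding group differ in casein expression. No casein passed the test between HY and LY. The quasi-likelihood test of edgeR called 0 of the 4 after Benjamini-Hochberg adjustment over all genes (FDR adjusted p of 0.999 for each), against a background of 0% of the 12333 genes called. Before adjustment, 0 of the 4 had p under 0.05, against 4.70% of all genes (187 higher and 393 lower in HY). DESeq2 also called 0% of all genes, and 2.83% had an unadjusted p under 0.05.

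The mean log2 level of CSN1S1 was 13.57 ± 4.01 (SD, n = 9) for HY, and for LY it was 14.44 ± 2.38 (SD, n = 12). The HY levels ran from 294 to 392154 CPM with a median of 9225, and the LY levels from 532 to 102907 CPM with a median of 30056. HY therefore held the 2 lowest and the 3 highest cows. CSN1S2 had 11.89 ± 3.92 in HY and 12.63 ± 2.43 in LY. CSN2 had 13.71 ± 3.75 in HY and 14.61 ± 2.28 in LY. CSN3 had 12.09 ± 4.07 in HY and 13.08 ± 2.31 in LY. On this scale HY minus LY was -0.87, -0.74, -0.89 and -0.99, and the exact two-sided permutation test over 293930 arrangements gave p of 0.539, 0.596, 0.502 and 0.485.

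In edgeR, which compares mean counts, the log2 fold change of HY over LY had the opposite sign. It was 1.01 ± 1.02 (SE) for CSN1S1, 1.09 ± 0.98 for CSN1S2, 0.70 ± 0.97 for CSN2 and 1.01 ± 1.002 for CSN3. The 95% interval of CSN1S1 was -1.09 to 3.10 and that of CSN2 -1.30 to 2.70, so that differences of several fold in either direction were not resolved with these cows. HY8 and HY9 carry much of the HY mean count. Without HY8 the log2 fold change of CSN1S1 was 0.31, that of CSN1S2 was 0.45 and that of CSN2 was -0.08, and without HY9 that of CSN3 was 0.23. With total counts in place of TMM, the value of CSN2 was -0.11 and the others were 0.19 to 0.25, while the median over all genes moved from 0.02 to -0.17. The direction between the groups thus depended on the scale for each casein. In edgeR it turned with the scaling or with a single cow left out for CSN2 only, while the size of the others moved.

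The whey protein genes did not pass the test either. The log2 fold change of HY over LY was 1.52 ± 1.08 (SE) for LALBA, 1.42 ± 1.09 for GLYCAM1 and 1.06 ± 1.02 for PAEP. Without HY9 alone these became 0.88, 0.59 and 0.42. It was 0.27 ± 0.68 for LTF, -0.14 ± 0.38 for CST3 and -0.13 ± 0.47 for SPP1. In none of the other lists was a member called. An unadjusted p under 0.05 was found for 1 of 9 hormone signalling genes, 1 of 16 regulators, 1 of 10 fat globule genes and 0 of the modification, neighbour and protease genes. That regulator had at most 5 counts in any cow. The median log2 fold change was 1.01 over the caseins, 0.67 over the whey genes and 0.02 over all genes.

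The lactation period was examined next, as the time since calving over which milk secretion changes. Casein levels were lower at longer lactation periods in the fitted slopes, but none of the 4 passed the test. The slope per 100 days in edgeR was -0.89 ± 0.61 (SE, log2) for CSN1S1, -0.98 ± 0.58 for CSN1S2, -0.65 ± 0.58 for CSN2 and -0.98 ± 0.62 for CSN3. The FDR adjusted p were 0.382, 0.317, 0.522 and 0.346. Of all genes, 0.0243% were called (3 genes, all lower at longer periods), and 22.3% had an unadjusted p under 0.05, against 0 of the 4 caseins. DESeq2 called 7.46% of all genes and 0 of the caseins, with adjusted p from 0.180 for CSN3 to 0.363 for CSN2. By DESeq2 23.5% of all genes and 0 caseins had an unadjusted p under 0.05.

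The cows fell into 8 with a lactation period of up to 108 days and 13 from 167 days on, with none between. In the 8 earlier cows the summed share was 0.141% in HY1, 21.5% in the median and 44.2% in HY8. In the 13 later cows it was 0.0876% in HY7, 4.34% in the median and 26.8% in LY6. Both sets held cows under 1% and over 20%, so the ranges overlapped. Pearson r of the log2 level with days was -0.142 for CSN1S1 (permutation p = 0.540), -0.154 for CSN1S2 (0.505), -0.113 for CSN2 (0.625) and -0.159 for CSN3 (0.493). Spearman rho was -0.126, -0.110, -0.0481 and -0.161, with permutation p from 0.486 to 0.838. Without the 2 cows of most distant level, which were HY1 and HY7 or, for CSN1S2, HY1 and LY12, r was -0.392, -0.333, -0.339 and -0.426. Within the lower mapping set r was weaker, from -0.0350 to -0.0777.

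**Figure D3:**
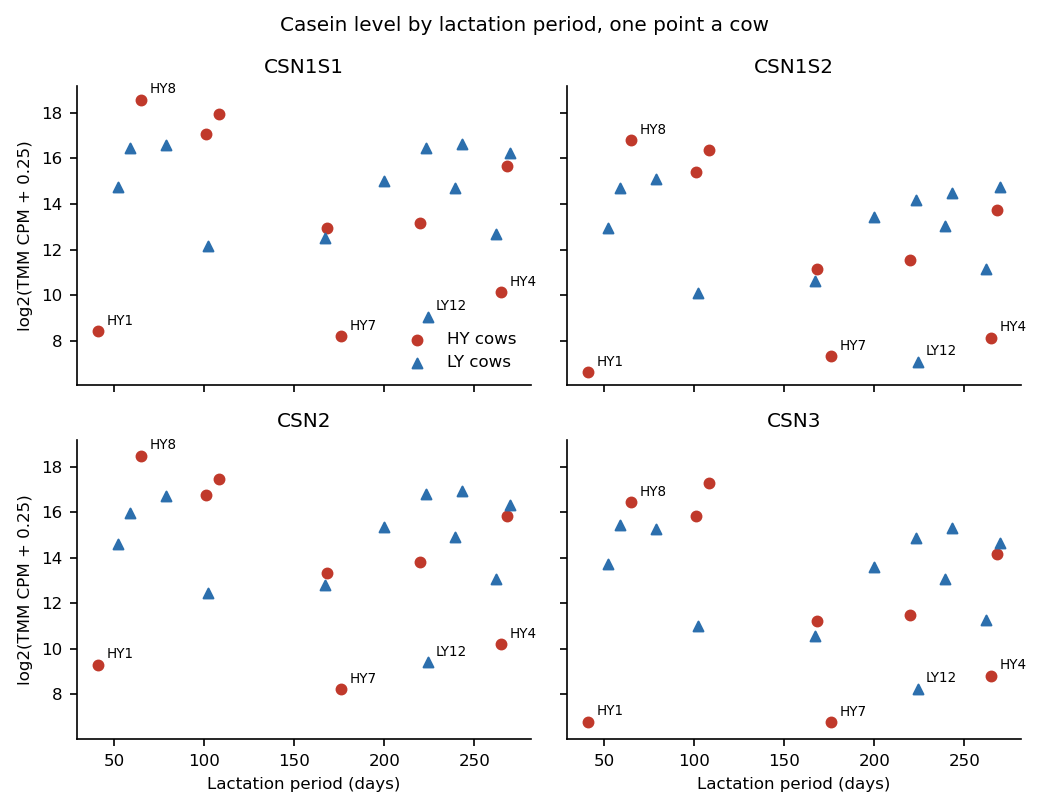
Level of each casein as log2(CPM + 0.25) (vertical axes) against the lactation period in days (horizontal axes), 1 panel per gene and 1 point for each of the 9 HY cows (circles) and 12 LY cows (triangles). HY1, at 41 days, lies with HY7, LY12 and HY4 at the bottom of each panel, and HY8, at 65 days, lies at or near the top.

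Single cows moved these slopes. Without HY8 the slope per 100 days was -0.54 for CSN1S1 and -0.22 for CSN2, and without LY1 the slope of CSN1S2 was -1.28. With total counts the slopes were -0.47, -0.54, -0.22 and -0.58, while the median of all genes moved from 0.02 to 0.18. The direction was downward for all 4 genes in every alternative run.

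The whey genes had slopes in the same direction, and 4 of 6 had an unadjusted p under 0.05, against 22.3% of all genes (1575 of 12333 downward). LALBA had -1.43 ± 0.64 per 100 days (SE, log2, FDR adjusted p = 0.192 in edgeR), GLYCAM1 -1.50 ± 0.68 (0.196), PAEP -1.34 ± 0.61 (0.197) and LTF -0.78 ± 0.37 (0.220). CST3 had -0.43 ± 0.23 and SPP1 -0.34 ± 0.30. Thus none was called, in DESeq2 as in edgeR.

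Among the other lists, the members with the lowest p were as follows, none of them called by edgeR. In the fat globule list these were MUC1 (-1.68 per 100 days, adjusted p = 0.0875) and CIDEA (-1.11, 0.153). In the regulator list they were NFIC (-0.61, 0.0875) and ELF1 (0.52, 0.0909). In the modification list they were ST6GALNAC2, a sialyltransferase (-0.37, 0.0722), and GALNT3, which starts O-glycan chains (0.70, 0.123). SOCS3 (0.98, 0.191) and STAT5B (0.47, 0.196) were the lowest of the hormone list, SULT1E1, which has at most 7 counts in a cow (-1.94, 0.140) and ODAM (-1.31, 0.147) of the neighbours. PLAUR, the urokinase receptor, had 0.83 (0.168) in the protease list. Of the list members reported here, DESeq2 called MUC1, NFIC, NFIB and ST6GALNAC2 lower and ELF1, GALNT3 and PLAUR higher at longer periods. It also called the B cell markers IGJ lower (adjusted p = 0.0191) and CR2 higher (0.0419). Of all genes, DESeq2 called 7.46%. Of the epithelial markers, 15 of 17 had slopes below 0 and 5 had an unadjusted p under 0.05, all downward. Of all genes, 22.3% had such a p in either direction, and 1575 of 12333 had it downward. The difference between these shares was not tested. Of 10 neutrophil markers 5 had such a p (3 upward, 2 downward), of 7 B cell markers 3 (1 upward, 2 downward), of 11 T cell markers 1 (upward) and of 10 macrophage markers 0. The lowest adjusted p of any list was 0.0639 in edgeR, for the B cell and plasma cell genes MZB1 (-2.60 per 100 days) and IGJ (-1.29). The median level was 0 CPM for MZB1 and 5.41 CPM for IGJ. Both were highest in HY1, the cow at 41 days, with 22.9 and 181 CPM, so this single cow can carry much of these slopes. All 11 T cell slopes were above 0.

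Whether the slope differed between the groups was tested by an interaction term. The slope per 100 days in HY minus that in LY was -1.60 ± 1.23 (SE, log2) for CSN1S1, -1.61 ± 1.18 for CSN1S2, -1.58 ± 1.19 for CSN2 and -1.48 ± 1.26 for CSN3. Of the caseins 0 were called, with an FDR adjusted p of 1 in edgeR for each, against 0% of all genes. DESeq2 called 0.00811% of all genes and 0 caseins, and unadjusted p under 0.05 was found for 2.61% of all genes (2.24% in DESeq2) and 0 caseins. Without HY3, a cow at 268 days, the differences were -3.42 to -3.72 with unadjusted p from 0.0247 to 0.0357 and an adjusted p of 1 in edgeR. HY3 was chosen after the values were seen, as the cow whose removal gave the largest differences. The smallest were -1.22 for CSN1S1 and -1.07 for CSN2 without HY8, -1.31 for CSN1S2 without LY1 and -1.05 for CSN3 without HY9. In the pathway lists 0 genes were called for this difference, and 1 of 6 neighbours and 0 of the others had an unadjusted p under 0.05. That neighbour had at most 5 counts in any cow.

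Parity was compared as 14 cows in parity 2 against 7 cows in parity 3 or 4. CSN1S1 averaged 13.88 ± 3.30 (SD, n = 14) on the log2 scale in parity 2 and 14.44 ± 2.95 (SD, n = 7) in later parities. CSN2 had 14.01 ± 3.16 and 14.65 ± 2.63, CSN1S2 had 12.15 ± 3.26 and 12.64 ± 2.93, and CSN3 had 12.51 ± 3.26 and 12.95 ± 3.08. In edgeR the log2 fold change of later over parity 2 was -0.57 ± 1.12 (SE) for CSN1S1, -0.67 ± 1.09 for CSN1S2, -0.40 ± 1.05 for CSN2 and -0.57 ± 1.10 for CSN3, again opposite in sign to the difference of log2 means. The FDR adjusted p ranged from 0.970 to 0.986. Without HY8 the values of CSN1S1 and CSN1S2 were -0.01 and -0.15. Of all genes 0% were called by either tool, and 5.72% (DESeq2 4.82%) had an unadjusted p under 0.05, against 0 of the caseins. The sign in edgeR turned with group and lactation period as covariates, where the 4 values were 0.58 to 0.93. Of the whey genes, 0 of 6 were called and 0 of 6 had an unadjusted p under 0.05. In the other pathway lists such a p was found for 1 of 9 hormone signalling genes, 1 of 16 regulators, 1 of 6 neighbours and 0 of the modification, fat globule and protease genes, with none called. That neighbour had at most 7 counts in any cow.

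The ratio of 2 caseins within a cow is free of the library's scaling. CSN1S1 and CSN2 were the most highly counted caseins, CSN2 in 16 cows and CSN1S1 in 5. CSN1S2 was the lowest in 16 cows and CSN3 in 5. On average CSN1S1 made up 35.5% ± 2.81 (SD, n = 21) of the casein counts, CSN2 39.97% ± 6.38, CSN3 13.8% ± 3.83 and CSN1S2 10.7% ± 2.43. The range of these shares was narrow beside the range of the casein level, from 29.0% to 40.9% for CSN1S1 and from 26.7% to 53.3% for CSN2.

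The count ratio of CSN1S1 to CSN2 was 0.544 in its lowest cow, 0.879 in the median and 1.41 in its highest. The ratio of CSN1S2 to CSN2 ranged from 0.157 to 0.526, with a median of 0.260. That of CSN3 to CSN2 ranged from 0.177 in HY1 to 0.894 in HY9, a 5.05-fold range, with a median of 0.314. Between CSN1S1 and CSN1S2 the ratio was 1.86 to 4.92, and between CSN3 and CSN1S1 0.228 to 0.643. The widest spread was thus that of CSN3 to CSN2, and it was small beside the 1111-fold range of the casein sum.

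The counts of CSN1S1 exceeded those of CSN2 in 5 cows. They were LY9 (52 days, ratio 1.11), LY2 (59 days, 1.41), HY8 (65 days, 1.07), HY6 (101 days, 1.24) and HY9 (108 days, 1.39). These were 5 of the 8 cows up to 108 days, 3 HY and 2 LY, and 0 of the 13 cows from 167 days on. The other early cows were LY8 (79 days, 0.942), LY5 (102 days, 0.817) and HY1 (41 days, 0.544), the earliest cow and the lowest ratio of all. In the later cows the ratio was 0.648 to 0.976. This grouping of days was noticed in the values and carries no test.

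**Figure D4:**
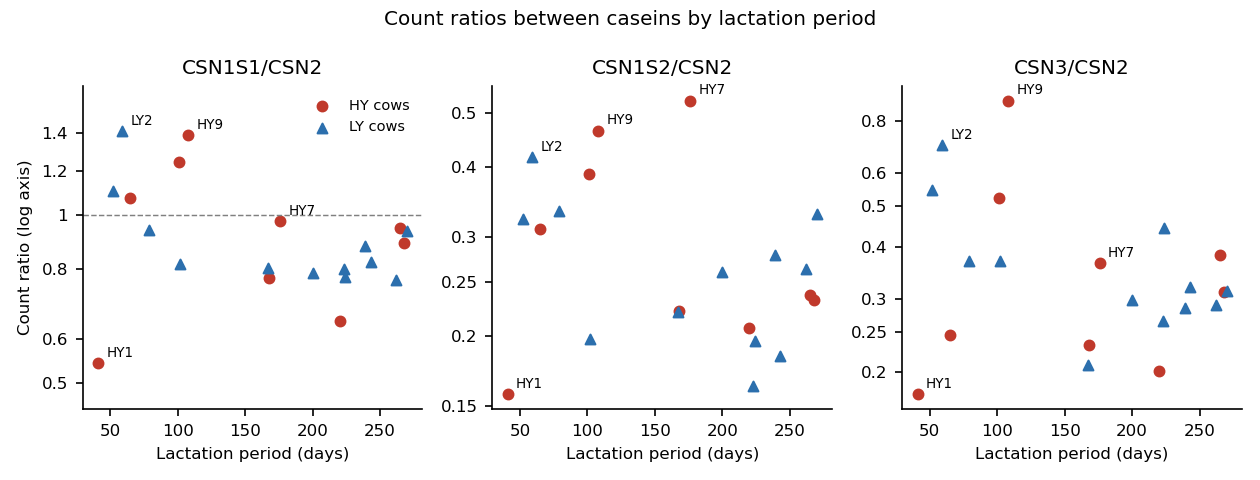
Count ratios of CSN1S1, CSN1S2 and CSN3 to CSN2 (vertical axes, log scale) against the lactation period in days (horizontal axes), with 1 point for each of the 9 HY cows (circles) and 12 LY cows (triangles). In the first panel the dashed line marks equal counts, and the 5 cows above it have periods of 52 to 108 days, while HY1, at 41 days, is the lowest at 0.544.

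For the log2 ratio of CSN1S1 to CSN2, Pearson r with days was -0.327 (permutation p = 0.150, adjusted p = 0.817 over the 18 ratio tests) and rho was -0.271 (permutation p = 0.232). This value moved with the cow left out. Without HY1, r was -0.622 (permutation p = 0.00318, adjusted over 18 tests 0.0572), still short of the threshold. HY1 was chosen after the values were seen, and the adjustment does not cover that choice. Without LY2 alone, r was -0.222. Without HY1 and LY2, the cows of most distant ratio, r was -0.552. Within LY it was -0.663, within HY, which holds HY1, -0.0671, within parity 2, where HY1 is not included, -0.640, and within the lower mapping set -0.234. For CSN1S2 to CSN2, r was -0.293 and without HY1 -0.483 (permutation p = 0.0322, adjusted 0.215). For CSN3 to CSN2 the values were -0.278 and -0.471 (permutation p = 0.0358, adjusted 0.215). Other cows moved these 2 relations the other way. Without LY2, r was -0.220 for CSN1S2 to CSN2 and -0.175 for CSN3 to CSN2. Without HY9 and LY2, the cows of most distant ratio of CSN3 to CSN2, its r was -0.0699. Over all cows its rho was -0.121 (permutation p = 0.601). The ratio of CSN1S1 to CSN1S2 had r of 0.114 with days.

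The ratio of CSN1S1 to CSN2 was also set against the log2 sum of the caseins, which holds both genes. Pearson r was 0.544 (permutation p = 0.0107, adjusted over the 6 ratios 0.0640) and rho was 0.506 (permutation p = 0.0205, adjusted 0.123), so it did not pass after adjustment. It was 0.541 without HY7 and HY1, 0.618 within HY, 0.434 within LY and 0.524 within the lower mapping set. For the other 5 ratios r was between -0.0312 and 0.292, with adjusted p of at least 0.444. This relation was chosen after the values were seen, and its part in the relation of the ratio with days was not tested.

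No ratio passed the test between HY and LY or between parities. In log2, HY minus LY was 0.03 for CSN1S1 to CSN2 (permutation p = 0.853), 0.15 for CSN1S2 to CSN2 (0.481) and -0.09 for CSN3 to CSN2 (0.729). It was -0.13 for CSN1S1 to CSN1S2 (permutation p = 0.356) and -0.12 for CSN3 to CSN1S1 (0.451). The largest difference was -0.25 for CSN3 to CSN1S2 (permutation p = 0.224). Parity 2 minus later parities was 0.08, 0.16 and 0.21 for the ratios to CSN2 in that order (permutation p from 0.454 to 0.608). For the other ratios, in the order above, it was -0.07, 0.13 and 0.05 (permutation p from 0.453 to 0.802). In all, 0 of the 18 tests passed, with adjusted p from 0.817 to 0.853.

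The last question was whether cows with higher casein expression have other milk trait values. Each trait of the labels was the response variable in an ordinary regression on log2(CPM + 0.25). The labels give no unit for the traits, and values below 0 occur, so slopes are in label units per 2-fold higher level. The study describes its milk yield trait as a breeding value, derived from the production index that also gave the groups. It is thus not an amount measured in the sampled milk. Whether the other traits are of the same kind is not stated. All 4 slopes were negative for each trait, but none passed the test. For milk yield the slope was -20.8 ± 18.8 (SE) for CSN1S1, -21.1 ± 19.0 for CSN1S2, -21.3 ± 19.9 for CSN2 and -22.9 ± 18.6 for CSN3, with an FDR adjusted p of 0.9999 each in the regression over all genes. Of all genes 0% were called, and 2.49% had an unadjusted p under 0.05, against 0 of the caseins. Without HY4 the 4 slopes were -12.4 to -15.5, and within HY they were -5.17 to -6.68. Pearson r with milk yield ranged from -0.238 to -0.272 (permutation p from 0.233 to 0.298) and rho from -0.149 to -0.192 (permutation p from 0.403 to 0.517). Without the 2 cows of most distant level r was -0.130 to -0.270. Within the groups r was -0.199 to -0.249 in HY and -0.254 to -0.380 in LY, and within the lower mapping set it was -0.316 to -0.321.

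For milk protein, the lowest HY label value was 1.542 and the highest LY label value 1.268. The slope was -0.543 ± 0.515 (SE) for CSN1S1, -0.537 ± 0.521 for CSN1S2, -0.571 ± 0.545 for CSN2 and -0.588 ± 0.510 for CSN3. The 95% interval for CSN2 was -1.71 to 0.570. Without HY4 the slopes were -0.326 to -0.403, and within HY they were -0.102 to -0.132. Of all genes 0% were called and 2.30% had an unadjusted p under 0.05, with 0 caseins. Pearson r ranged from -0.230 to -0.255 (permutation p from 0.265 to 0.315) and rho from -0.142 to -0.178 (permutation p from 0.441 to 0.539). Without the 2 cows of most distant level r was -0.132 to -0.293. Within HY r was -0.105 to -0.126, within LY -0.277 to -0.378 and within the lower mapping set -0.285 to -0.299.

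**Figure D5:**
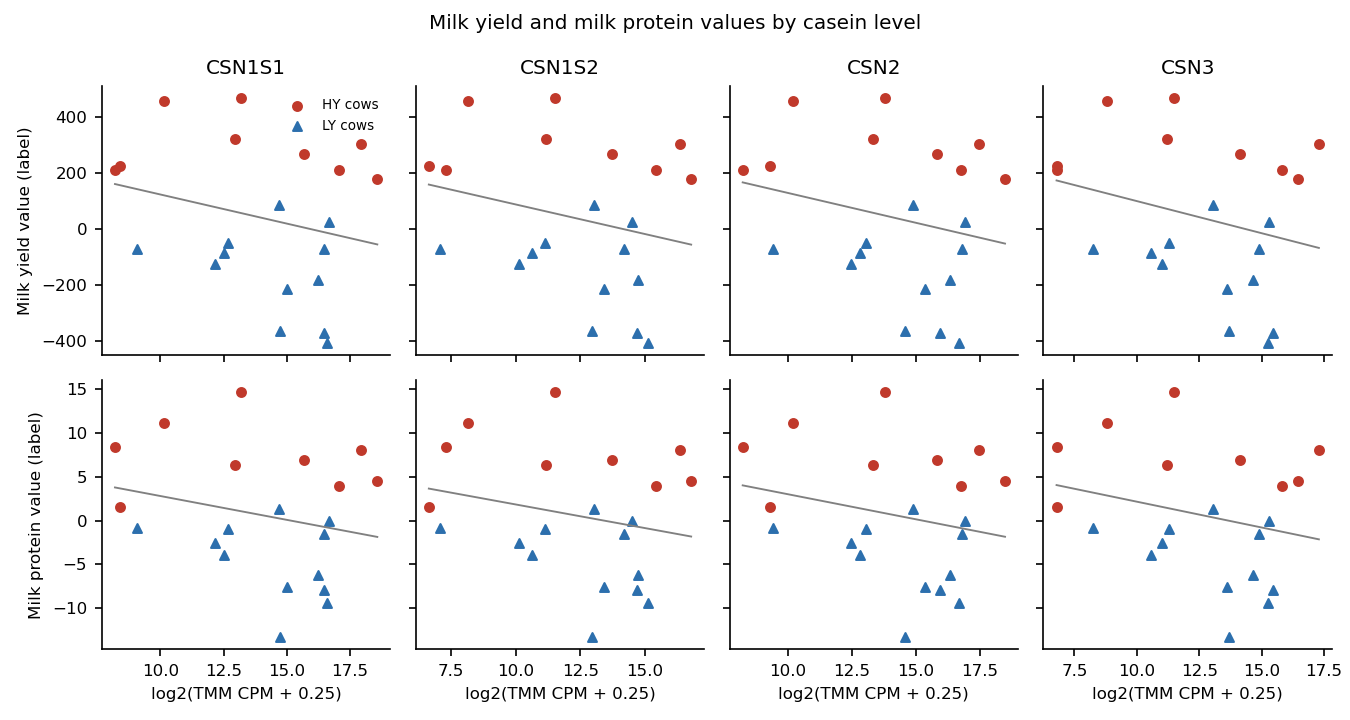
Label values of milk yield (upper row) and milk protein (lower row), for which no unit is given, against the level of each casein as log2(CPM + 0.25) (horizontal axes), with 1 point for each of the 9 HY cows (circles) and 12 LY cows (triangles). The grey lines are ordinary regressions over all 21 cows, and each has a negative slope that did not pass the test, with values of -20.8 to -22.9 for milk yield.

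For milk fat the slope was -0.547 ± 0.481 (SE) for CSN1S1, -0.517 ± 0.489 for CSN1S2, -0.611 ± 0.508 for CSN2 and -0.583 ± 0.478 for CSN3. Without HY7 they were -0.289 to -0.339. Of all genes 0% were called and 2.30% had an unadjusted p under 0.05, with 0 caseins. Pearson r with milk fat was -0.236 to -0.269 (permutation p from 0.237 to 0.301), rho was -0.127 to -0.138 (permutation p from 0.550 to 0.581), and r was -0.00454 to -0.163 without the 2 cows of most distant level. Within HY it was -0.195 to -0.233, within LY -0.217 to -0.259 and within the lower mapping set -0.256 to -0.315. For milk solid the slope was -0.671 ± 1.52 (SE), -0.639 ± 1.54, -0.701 ± 1.61 and -0.812 ± 1.51 in the order of the genes above, with 0% and 1.65% of all genes past the adjusted and unadjusted thresholds and 0 caseins. Pearson r with milk solid was -0.0949 to -0.122 (permutation p from 0.598 to 0.682), rho was -0.0156 to 0.0403 (permutation p from 0.863 to 0.949), and r was -0.141 to -0.288 without the 2 cows of most distant level. Within HY r was 0.188 to 0.222, within LY -0.231 to -0.371, and within the lower mapping set -0.127 to -0.142, so the sign differed between the groups, which was not tested.

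The 20 Pearson correlations of caseins with days and traits had permutation p of at least 0.233, and at least 0.526 after adjustment over the 20, and for Spearman rho the adjusted p was at least 0.839. The whey genes also had slopes below 0 in 6 of 6 cases for each of the 4 traits, with 0 called and 0 at an unadjusted p under 0.05. In the other pathway lists 1 of 16 regulators had such a p for each trait and 0 of the others. It was the same regulator each time, with a median of 0 CPM and at most 5 counts in any cow, too few to read a pattern. All 17 epithelial markers had slopes below 0 for milk yield, milk fat and milk protein, and 16 of 17 for milk solid. None of them was called and none had an unadjusted p under 0.05. In the same order of traits, 9, 8, 9 and 10 of 10 neutrophil markers were below 0. The counts were 8, 11, 9 and 8 of 11 for T cells and 3, 5, 6 and 6 of 7 for B cells. For macrophages they were 2, 3, 2 and 4 of 10. The median slope over all genes was also below 0 for each trait (-0.600, -0.232, -0.0595 and -0.319).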

How the data were processed

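The deposited tables held raw read counts per gene for the 21 cows, with no normalization. Per the labels and the study's methods, the authors trimmed reads with Trimmomatic, mapped them to bosTau7 with Bowtie2 and TopHat2 and counted them with HTSeq. Whether strand was used is not given in the sources used here. A row without a gene name (0.0360% to 0.151% of counts) and the HTSeq summary rows were left out, 23 rows carried dates as names, and 1237 rows had no count. No pair of libraries was a duplicate by counting error (lowest chi-square per degree of freedom 33.7). The casein genes and all gene lists were chosen with earlier results of these data known.

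Counts were scaled with TMM and tested over 12333 genes by the quasi-likelihood test of edgeR 4.0.16 (R 4.3.3), with Benjamini-Hochberg adjustment and a threshold of 0.05. Traits were regressed on log2(CPM + 0.25). DESeq2 1.42.0, other scalings, a filter of 10 counts in every cow, covariates, Huber regression, offsets, the 16 cows of the lower mapping set (1 HY and 4 LY cows are in the higher one) and leaving out each cow were alternatives. Mapping rates of the study split the cows into these sets. Ratios of counts (offset 0.5) were tested by 100000 two-sided permutations, with adjustment over 18 tests, and correlations likewise. The edgeR and regression procedures were tested on simulated data. Named were the 4 caseins, every counted whey gene, in the lactation comparison the 2 members of lowest p of each other pathway list, and by likeness the 10 highest and 5 lowest genes with a mean of at least 1 CPM. Some genes that this rule selects are not reported here. In the remaining comparisons these pathway lists are given by counts only, and marker lists for some comparisons. Other genes of the lists named for their r, level or tool were chosen after their values were seen. Python 3.11.15, numpy 2.4.6, pandas 2.3.3, scipy 1.17.1 and matplotlib 3.10.9 were used.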

Additional observations from a re-analysis of the deposited data

Results flagged for a closer look

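Within groups of 4 to 10 cows, the highest and lowest values of casein levels, shares and ratios were examined by Dixon's test. Of the 45 combinations of a group and a value examined, 3 were marked. Chance alone marks about 1 in 20 independent combinations. These are not independent, since the groups share cows and the caseins go up and down together. HY7, the cow with the lowest casein share, had the lowest log2 ratio of CSN1S1 to CSN1S2 in HY, 0.89 (a ratio of 1.86), while the other HY cows ranged from 1.58 to 2.00. LY2 had the highest log2 ratio of CSN3 to CSN2 among the cows in parity 3 or 4, -0.52 (a ratio of 0.699), with the others from -2.50 to -1.65. HY1 had the lowest log2 ratio of CSN1S1 to CSN2 among the 4 cows in parity 3, -0.88 (a ratio of 0.544), with the others from -0.28 to -0.17.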

How the results depend on the processing

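In every alternative run, leaving out each cow included, 0 of the 4 caseins passed the threshold in each of the 8 comparisons across genes and 0 of the 18 ratio tests passed. The number of all genes called for the lactation period was 3 and became 920 with DESeq2, 1 with total counts, 1 with group and parity as covariates, and 0 with the filter of 10 counts, in the lower mapping set and in the split at the median period. It was 0 to 428 when each cow was left out, 428 without LY9, 358 without HY1 and 257 without HY4. For the difference of slopes it was 0, and 1 with DESeq2. The cause of these changes was not tested.

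Signs turned for the following values, none of them past the threshold. With total counts, HY over LY became -0.11 for CSN2 and -0.57 for LTF, and with covariates -0.28 for LTF. With group and lactation period as covariates, later over parity 2 became 0.77, 0.93, 0.58 and 0.79 for CSN1S1, CSN1S2, CSN2 and CSN3. The slope of milk solid became 0.0372 for CSN1S2 with covariates, and within HY it was 0.845, 0.867, 0.815 and 0.886. In the lower mapping set, HY minus LY became 0.0225 for CSN3 to CSN2, parity 2 minus later became -0.02595 for CSN3 to CSN1S1 and -0.139 for CSN3 to CSN1S2, and r of CSN3 to CSN1S2 with days became 0.0117. Leaving out each cow gave HY over LY of -0.0849 to 0.87 for CSN2, -0.995 to 0.50 for LTF and -0.48 to 0.20 for CST3. It gave parity values of -0.70 to 0.16 for CSN2 and -0.84 to 0.0549 for CSN3, and milk solid slopes of -1.54 to 0.0664 for CSN1S1, -1.54 to 0.173 for CSN1S2 and -1.52 to 0.153 for CSN2. For log2 ratios it gave -0.0484 to 0.12 (HY minus LY) and -0.0294 to 0.20 (parity) for CSN1S1 to CSN2, -0.28 to 0.0158 (HY minus LY) for CSN3 to CSN2, and -0.0096 to 0.13 (parity) and r of -0.161 to 0.0242 for CSN3 to CSN1S2.

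No paired analysis was possible because the HY and LY cows are different animals, and the labels do not match them in pairs. Depth did not limit the caseins, whose lowest count was 879, while PRLR and GHR had 0 counts in at least 1 cow.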
